A study of Homo sapiens with 9 samples.

Results

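The genes described here are the D-type cyclins (CCND1, CCND2 and CCND3), the kinases they activate (CDK4 and CDK6) and 5 inhibitors of these kinases (CDKN1A, CDKN1B, CDKN1C, CDKN2C and CDKN2D). They were taken by gene name from the deposited count table, and all 10 were found among its 58735 genes. The RNA came from MIA PaCa-2, an established line of human pancreatic cancer cells that has lost CDKN2A. The cells, labelled WT in genotype, were exposed over 24-h to the ERK1 and ERK2 inhibitor SCH772984 at 1 μM, to the TBK1–IKKε inhibitor compound 1 at 1 μM, or to 0.1% DMSO as the vehicle. All cells were grown in the same medium with fetal bovine and horse serum, and no group received both inhibitors. Each group had 3 RNA-seq libraries. The labels do not say that these came from separate cultures, so the p-values measure only the spread between these libraries, which may be technical.

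D-type cyclins bind CDK4 or CDK6 early in the cell cycle, and the active kinases phosphorylate RB proteins, which frees E2F factors to switch on the genes of DNA replication. The INK4 proteins, here p18 (CDKN2C) and p19 (CDKN2D), bind CDK4 and CDK6 and keep cyclin D away. The CIP/KIP proteins p21 (CDKN1A), p27 (CDKN1B) and p57 (CDKN1C) bind whole cyclin–CDK complexes and block the cyclin E and cyclin A kinases most strongly. In many cancer cells, CCND1 is a classic gene downstream of ERK.

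To place the genes on the genome, the windows from 250 bases before to 50 bases after the annotated start were taken from RefSeq (GRCh38.p14). Of the 10 genes, 7 had such a window, some with more than 1, 12 windows in all. CCND1, CCND2 and CDKN1C had none in the table. The windows of CDK4, which fell with SCH772984, and of CDKN1B and CDKN2C, which rose, are shown as members of both directions, each written 5′ to 3′ on the strand of its gene. Capitals mark E-boxes (CACGTG) and CCAAT boxes (CCAAT, or ATTGG on the opposite strand). The CDK4 window is chr12:57752261-57752560 on the minus strand, the CDKN1B window chr12:12717118-12717417 on the plus strand, and the CDKN2C window, the last of its 3, chr1:50969995-50970294 on the plus strand.
CDK4: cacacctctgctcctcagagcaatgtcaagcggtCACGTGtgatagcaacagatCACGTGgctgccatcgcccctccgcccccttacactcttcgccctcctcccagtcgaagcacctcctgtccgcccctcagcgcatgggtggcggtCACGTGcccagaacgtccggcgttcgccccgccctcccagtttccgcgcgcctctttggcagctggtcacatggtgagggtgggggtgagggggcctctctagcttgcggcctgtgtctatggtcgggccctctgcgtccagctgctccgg
CDKN1B: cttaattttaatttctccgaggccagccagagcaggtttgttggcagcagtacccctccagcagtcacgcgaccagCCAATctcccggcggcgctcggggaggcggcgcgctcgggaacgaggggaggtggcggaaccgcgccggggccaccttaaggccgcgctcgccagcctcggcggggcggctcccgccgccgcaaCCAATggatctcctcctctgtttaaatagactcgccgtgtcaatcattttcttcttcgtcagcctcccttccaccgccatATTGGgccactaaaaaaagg
CDKN2C: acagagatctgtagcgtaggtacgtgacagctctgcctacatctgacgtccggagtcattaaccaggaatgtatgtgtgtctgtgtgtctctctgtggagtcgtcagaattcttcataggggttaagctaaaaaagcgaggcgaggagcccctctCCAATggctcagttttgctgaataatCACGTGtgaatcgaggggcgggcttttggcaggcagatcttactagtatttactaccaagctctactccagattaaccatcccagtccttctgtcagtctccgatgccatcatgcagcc

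The CDK4 window holds 3 E-boxes, starting at -216, -196 and -101 from the annotated start. An E-box also stands in a window of CDK6 and in windows of CDKN2C, in 4 of the 12 windows and in 7.26% of all 35116 RefSeq windows of this length. The CDKN1B window holds CCAAT boxes at -174, -50 and 31, and the CDKN2C window holds 1 at -95 beside an E-box at -69. A CCAAT box was found in windows of CCND3, CDKN1B, CDKN2C and CDKN2D, in 5 of the 12 and in 34.6% of all windows. The GC box (GGGCGG or CCGCCC) was found in 9 of the 12 windows and in 45.0% of all windows, and the FOXO motif (TGTTTAC or GTAAACA) in 1 of the 12, a window of CCND3, and in 3.42% of all. E2F motifs (TTTGGCGC, TTTCCCGC, TTTCGCGC or TTTGCCGC), AP-1 (TGANTCA), CRE (TGACGTCA), ETS (CCGGAAGT) and the TATA box (TATAAA) had no match in these windows of the 7 genes, and stood in 3.31%, 7.71%, 1.85%, 4.14% and 11.5% of all windows. Both strands were searched. These matches describe letters in a window and do not show that a factor binds there.

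Library totals were 9464432–10286223 counts for DMSO, 9652741–9840769 for compound 1 and 11056977–13887859 for SCH772984. Levels of 1 gene between libraries are given as TMM-normalized CPM, counts divided by the scaled total of each library, and levels of different genes as RPKM, the same values divided by the exonic length of the gene. Of all genes tested, 72.8% differed between SCH772984 and DMSO at an adjusted p under 0.05, and 0.864% between compound 1 and DMSO. Mitochondrial transcripts made up 3.33–3.98% of counts with DMSO, 3.41–3.92% with compound 1 and 6.23–7.52% with SCH772984. Among 8 markers of ductal and simple epithelium, KRT8, KRT18, KRT19, SOX9 and MUC1 were measured well, EPCAM had 0 counts in all libraries, and KRT7 and CDH1 had at most 5 counts. Their sum lay at 3600–3870 CPM in DMSO, 3100–3870 CPM in compound 1 and 1210–1380 CPM in SCH772984 libraries. This sum was mostly KRT8 (2490 CPM on average with DMSO, 773 with SCH772984) and KRT18, while MUC1 went from 4.62 to 31.4 CPM and KRT19 from 252 to 273. The 14 markers of other cell types summed to 9.96–10.6, 6.24–10.2 and 45.2–54.0 CPM in the same order, mostly COL3A1, with PTPRC, CD3E, PRSS1, CPA1, INS, GCG and ALB at 0 counts. The part of the mitochondrial share and of these markers in the results was not tested. In RNA from a whole culture, fewer cells of a type and less RNA per cell cannot be told apart.

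In vehicle-treated cells, RNA levels of the 10 genes were very unequal. CCND1 and CDK4 led with 40.2 ± 1.85 and 36.5 ± 1.55 RPKM (mean ± SD, n = 3), followed by CDKN1B at 26.6 ± 0.535 RPKM. CCND3 stood at 12.2 ± 0.641 RPKM, CDKN2C at 10.1 ± 0.476 RPKM and CDKN2D at 6.04 ± 0.523 RPKM. CDK6 was much lower, at 1.56 ± 0.101 RPKM, which is 4.11% of the summed level of both kinases. CDKN1A at 0.611 ± 0.133 RPKM and CDKN1C at 0.603 ± 0.153 RPKM overlapped between libraries, and CCND2 had 0 counts in all 3 libraries. The other neighbours in this order did not overlap. The order of the top genes depends on the length assigned to each gene: with the longest coding transcript as the length, an alternative chosen after the data were seen, CDK4 led at 55.8 RPKM before CCND1 at 45.1 and CCND3 at 29.4.

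With SCH772984, 8 of the 9 genes with reads in both groups changed at an adjusted p under 0.05, 4 up and 4 down. The 4 that fell were CCND1, CCND3, CDK4 and CDK6, all of them parts of the active kinase, and the 4 that rose were inhibitors. CDKN2D was the gene not called. CCND2 had 0 counts in DMSO, entered the fit only through the SCH772984 libraries and is left out of these counts. Over all 13834 genes tested, 37.2% rose and 35.5% fell, so a count of 8 in 9 stands against a background of 72.8% and says little by itself. Of these 9 genes, the same 8 were those whose SCH772984 and DMSO libraries did not overlap, against 37.8% higher and 36.5% lower without overlap over all genes.

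**Figure D1:**
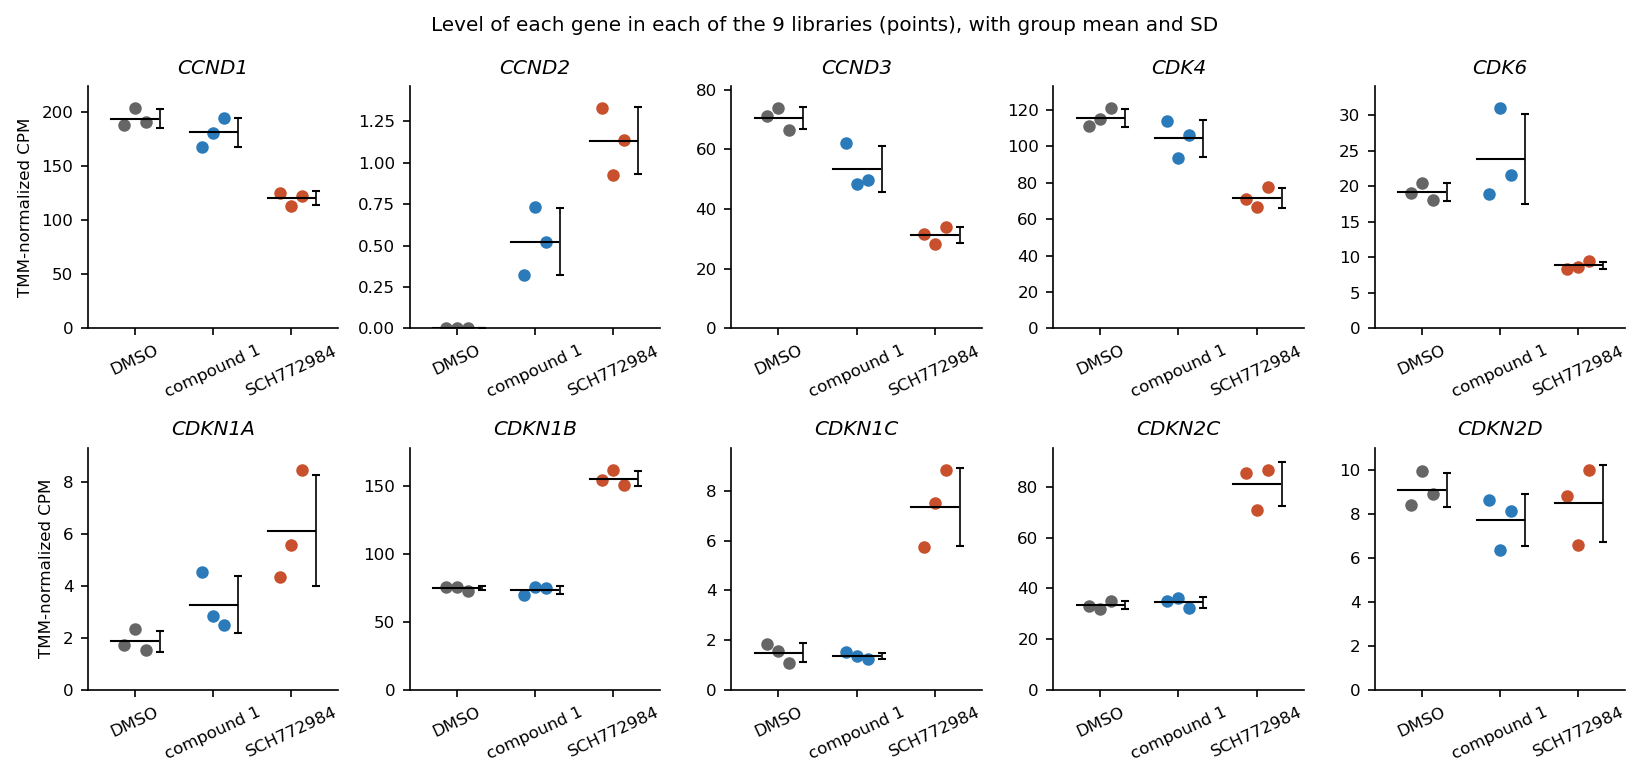
Level of each of the 10 genes in each of the 9 libraries, as TMM-normalized CPM on a linear axis starting at 0. Points are libraries, the horizontal line is the mean of 3 and the bar beside it the SD. CCND1, CCND3, CDK4 and CDK6 are lowest with SCH772984, CDKN1B, CDKN1C and CDKN2C are highest there, and CDKN2D overlaps between all groups.

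The plot of levels by library shows how tight the groups were for the D-type cyclins. CCND1 (ENSG00000110092, chr11:69641087-69654474), which encodes cyclin D1, measured 188, 204 and 191 CPM with DMSO and 125, 113 and 123 CPM with SCH772984. All 3 treated libraries lay under all 3 DMSO libraries. CCND1 fell by 0.70 on the log2 scale (SE 0.07, 95% interval -0.83 to -0.56, adjusted p = 7.1e-13), a level 1.62-fold lower, and 43.6% of all genes tested had a larger change. With compound 1 it measured 168, 181 and 195 CPM, overlapping DMSO. The log2 difference was -0.09 (95% interval -0.25 to 0.07, adjusted p = 0.603), and -0.15 to -0.04 without 1 library. The antisense gene LTO1 shares 497 exonic bases with CCND1, 10.3% of its length, and its log2 difference with SCH772984 was -0.10 (adjusted p = 0.405).

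CCND3 (ENSG00000112576, chr6:41934933-42050357), which encodes cyclin D3, was the D-type cyclin with the larger fall. It measured 71.3, 73.8 and 66.4 CPM with DMSO and 31.6, 28.4 and 33.8 CPM with SCH772984, with no overlap. CCND3 fell by 1.17 on the log2 scale (SE 0.09, adjusted p = 1.59e-16), a level 2.26-fold lower. With compound 1 the libraries measured 62.2, 48.4 and 49.7 CPM, all under the lowest DMSO library. That difference was -0.40 on the log2 scale (SE 0.10, 95% interval -0.61 to -0.19), with an unadjusted p of 0.00101 and an adjusted p of 0.0707 in edgeR, so it missed the threshold. It passed in 4 alternative fits and without compound 1 replicate 1, where it was -0.52 (adjusted p = 2.17e-05), and the adjusted p ranged from 2.17e-05 to 0.374 over all alternatives.

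CCND2 (ENSG00000118971, chr12:4273772-4305350), which encodes cyclin D2, was near the limit of detection. It had 0 counts in each DMSO library, 3, 7 and 5 counts with compound 1, and 16, 11 and 17 counts with SCH772984. Every treated library held reads where no DMSO library did. The SCH772984 libraries averaged 1.13 CPM, at least 3.52-fold higher than DMSO at a floor of 3 counts per library. No p is given against DMSO, since the gene passed the filter on low counts through the SCH772984 libraries alone. For compound 1 the mean of 0.524 CPM was 1.63 times that floor, but replicate 1, with 3 counts, stood at the floor. The gene was too low to enter the fit of compound 1 against DMSO. At these counts CCND2 made up 0.518% of the summed D-type cyclin level with SCH772984.

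Both kinases fell with SCH772984, CDK6 by more. CDK4 (ENSG00000135446, chr12:57747727-57756013) measured 111, 115 and 121 CPM with DMSO and 71.2, 66.7 and 77.5 CPM with SCH772984, without overlap. CDK4 fell by 0.69 on the log2 scale (SE 0.07, 95% interval -0.84 to -0.55, adjusted p = 1.38e-11), 1.62-fold. With compound 1 it measured 114, 93.7 and 106 CPM, and the log2 difference was -0.15 (95% interval -0.32 to 0.03, adjusted p = 0.428). The opposite-strand gene TSPAN31 shares 1369 exonic bases with CDK4, 43.2% of its length. TSPAN31 had 36 to 81 counts per library and a log2 difference of 0.39 with SCH772984 (adjusted p = 0.103). MARCH9, which overlaps the span of CDK4 on the opposite strand without shared exonic bases, rose by 1.48 on the log2 scale (SE 0.19, adjusted p = 4.3e-09), opposite in direction to CDK4.

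CDK6 (ENSG00000105810, chr7:92604921-92836594) measured 19.1, 20.4 and 18.0 CPM with DMSO and 8.4, 8.69 and 9.47 CPM with SCH772984. The SCH772984 libraries were all under the DMSO libraries. CDK6 fell by 1.11 on the log2 scale (SE 0.14, 95% interval -1.40 to -0.83, adjusted p = 1.7e-09), 2.17-fold. With compound 1 it measured 18.9, 31.0 and 21.6 CPM, so replicate 2 stood far above the rest of its group. The log2 difference was 0.32 (95% interval -0.02 to 0.66, adjusted p = 0.358). Without compound 1 replicate 2 it was 0.08 with an adjusted p of 0.837, and CDK4 was -0.08 with 0.695. Without compound 1 replicate 1 CDK6 was 0.46 with an adjusted p of 0.0157, and CDK4 was -0.21 with 0.0436.

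Among the CIP/KIP inhibitors, CDKN1B carried most of the RNA. CDKN1B (ENSG00000111276, chr12:12715058-12722371), which encodes p27, measured 75.5, 75.7 and 73.0 CPM with DMSO and 154, 162 and 151 CPM with SCH772984. The groups lay far apart for this gene compared with their spread. CDKN1B rose by 1.05 on the log2 scale (SE 0.07, 95% interval 0.91 to 1.19, adjusted p = 4.03e-18), 2.07-fold. With compound 1 it measured 70.0, 75.6 and 75.2 CPM, a log2 difference of -0.02 (95% interval -0.19 to 0.15, adjusted p = 0.939). AC008115.3, a transcript annotated within an intron of CDKN1B on the same strand, had 19 to 26 counts with DMSO and 99 to 118 with SCH772984, a rise of 1.76 on the log2 scale (SE 0.23, adjusted p = 2.37e-09).

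CDKN1C and CDKN1A started from low levels and rose more in relative terms. CDKN1C (ENSG00000129757, chr11:2883213-2885773), which encodes p57, had 18, 14 and 10 counts with DMSO, 14, 13 and 12 with compound 1, and 69, 89 and 132 with SCH772984. The SCH772984 libraries were all above the others. CDKN1C rose by 2.29 on the log2 scale (SE 0.27, 95% interval 1.75 to 2.82, adjusted p = 1.99e-10), 4.89-fold, and 5.7% of all genes tested had a larger change. With compound 1 the log2 difference was -0.13, with a wide 95% interval of -0.88 to 0.63 (adjusted p = 0.901).

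CDKN1A (ENSG00000124762, chr6:36676460-36687339), which encodes p21, had 17, 21 and 14 counts with DMSO, 42, 27 and 24 with compound 1, and 52, 66 and 126 with SCH772984. In CPM these were 1.74, 2.32 and 1.53 with DMSO, 4.52, 2.82 and 2.49 with compound 1, and 4.32, 5.57 and 8.46 with SCH772984. Both inhibitors gave libraries above all DMSO libraries, and the inhibitor groups overlapped each other. CDKN1A rose by 1.72 on the log2 scale with SCH772984 (SE 0.28, 95% interval 1.16 to 2.28, adjusted p = 4.66e-07). The difference with compound 1 was 0.81 (SE 0.31, 95% interval 0.14 to 1.48), with an unadjusted p of 0.0203 and an adjusted p of 0.229, so it missed the threshold. Without compound 1 replicate 1 it was 0.52, with an unadjusted p of 0.162.

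The INK4 genes differed between themselves. CDKN2C (ENSG00000123080, chr1:50960745-50974633), which encodes p18, measured 33.2, 32.1 and 35.2 CPM with DMSO and 85.6, 71.1 and 86.9 CPM with SCH772984, without overlap. CDKN2C rose by 1.27 on the log2 scale (SE 0.09, adjusted p = 1.64e-17), 2.42-fold. With compound 1 it measured 34.9, 36.3 and 32.3 CPM, a log2 difference of 0.04 (95% interval -0.16 to 0.25, adjusted p = 0.876). CDKN2D (ENSG00000129355, chr19:10566462-10569059), which encodes p19, measured 8.41, 9.94 and 8.87 CPM with DMSO, 8.61, 6.37 and 8.11 with compound 1 and 8.81, 6.58 and 10.0 with SCH772984. The groups overlapped throughout. Its log2 difference was -0.09 with SCH772984 (95% interval -0.44 to 0.25, adjusted p = 0.634) and -0.23 with compound 1 (95% interval -0.60 to 0.13, adjusted p = 0.565), the latter -0.32 to -0.12 without 1 library. The other INK4 genes, CDKN2A and CDKN2B, had 0 counts in all 9 libraries, which allows up to 0.331 CPM in the shallowest library.

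With compound 1, 0 of the 9 genes tested passed an adjusted p under 0.05, where 0.490% of all 12849 genes tested rose and 0.374% fell. At an unadjusted p under 0.05, CDKN1A was higher and CCND3 lower, 2 of 9 genes, against 15.0% of all genes, 7.35% higher and 7.69% lower. Of the 9 genes, the same pair had libraries that did not overlap DMSO, against 10.6% of all genes higher and 10.7% lower without overlap. Leaving out single libraries moved the count of genes called over the whole table from 8 to 1251, the latter without compound 1 replicate 1, from 111 with all libraries.

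**Figure D2:**
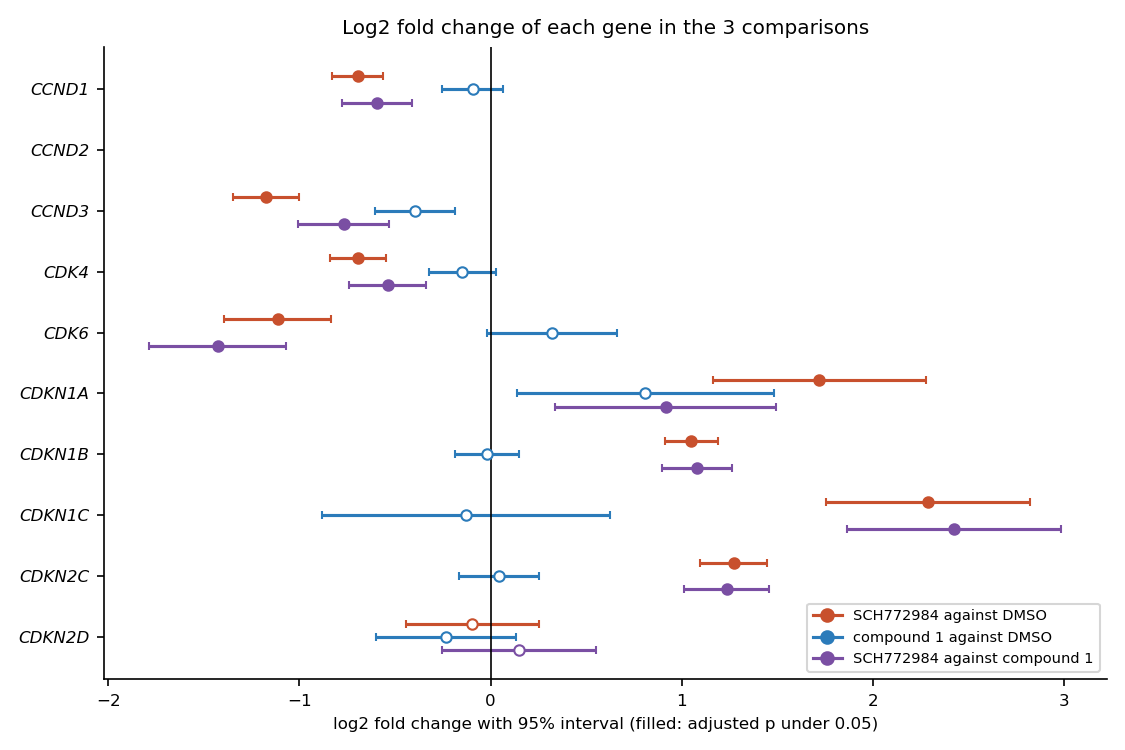
Log2 fold change of each gene with its 95% interval in the 3 comparisons (x axis, log2 scale), filled where the edgeR adjusted p was under 0.05. CCND2 has no point, since it passed the filter on low counts only where it was high. The SCH772984 points stand away from 0 for all genes but CDKN2D, and no compound 1 point is filled.

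Because both comparisons share the DMSO libraries, the inhibitors were also compared with each other at the same dose and time, in a fit without DMSO, for the 9 genes other than CCND2. CDKN1A, CDKN1B, CDKN1C and CDKN2C were higher and CCND1, CCND3, CDK4 and CDK6 lower with SCH772984, 8 of 9 genes against 66.3% of all 13863 genes tested, 33.7% higher and 32.6% lower. The libraries of both inhibitors did not overlap for 7 of these 8 genes, CDKN1A being the exception, against 35.3% of all genes higher and 34.0% lower without overlap. The difference was -1.43 for CDK6 (SE 0.17, adjusted p = 3.05e-07), -0.77 for CCND3 (SE 0.11, adjusted p = 5.4e-06), -0.59 for CCND1 (SE 0.09, adjusted p = 5.58e-06) and -0.54 for CDK4 (SE 0.10, adjusted p = 5.73e-05) on the log2 scale. It was 2.43 for CDKN1C (SE 0.27, adjusted p = 1e-07), 1.24 for CDKN2C (SE 0.11, adjusted p = 2.33e-09) and 1.08 for CDKN1B (SE 0.09, adjusted p = 1.04e-09). The plot of the 3 log2 fold changes shows these intervals beside those against DMSO. CDKN1A was the least certain. CDKN1A differed by 0.92 (SE 0.28, adjusted p = 0.00627), and without SCH772984 replicate 3 by 0.60 with an adjusted p of 0.0881. CCND2, with 3 to 7 counts with compound 1 and 11 to 17 with SCH772984, passed the filter only through the SCH772984 libraries, so no test is given and it is left out of these counts. For CDKN2D the difference was 0.15 (95% interval -0.26 to 0.55, adjusted p = 0.518), and 0.01 to 0.30 without 1 library.

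Summed within each class, the balance of activators and inhibitors in RNA differed between SCH772984 and the other groups. The D-type cyclins summed to 52.4 ± 2.31 RPKM with DMSO and 30.5 ± 1.78 with SCH772984, and CDK4 with CDK6 to 38.1 ± 1.5 and 23.4 ± 1.76. The CIP/KIP genes summed to 27.8 ± 0.772 RPKM with DMSO and 60.3 ± 1.99 with SCH772984, and the INK4 genes to 16.1 ± 0.478 and 30.1 ± 3.78. No class overlapped between these groups. With compound 1 the D-type cyclins summed to 45.6, 45.9 and 49.1 RPKM, under the DMSO range of 50.9–55.0, while the other 3 classes overlapped DMSO.

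Ratios within a library do not depend on the scaling between libraries. The ratio of the CIP/KIP sum to the D-type cyclin sum was 0.551, 0.515 and 0.529 with DMSO, 0.591, 0.617 and 0.572 with compound 1, and 1.85, 2.19 and 1.91 with SCH772984. The SCH772984 mean was 3.74 times the DMSO mean. The ratio of the INK4 sum to CDK4 with CDK6 was 0.416–0.43 with DMSO, 0.431–0.473 with compound 1 and 1.19–1.37 with SCH772984, 3.03 times the DMSO mean. By contrast, the ratio of the kinases to the D-type cyclins overlapped between all groups, at 0.689–0.779, 0.699–0.82 and 0.735–0.802. These sums carry no test. With the longest coding transcript as the length, the ratio of CIP/KIP to D-type cyclins was 0.399 with DMSO and 1.58 with SCH772984.

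**Figure D3:**
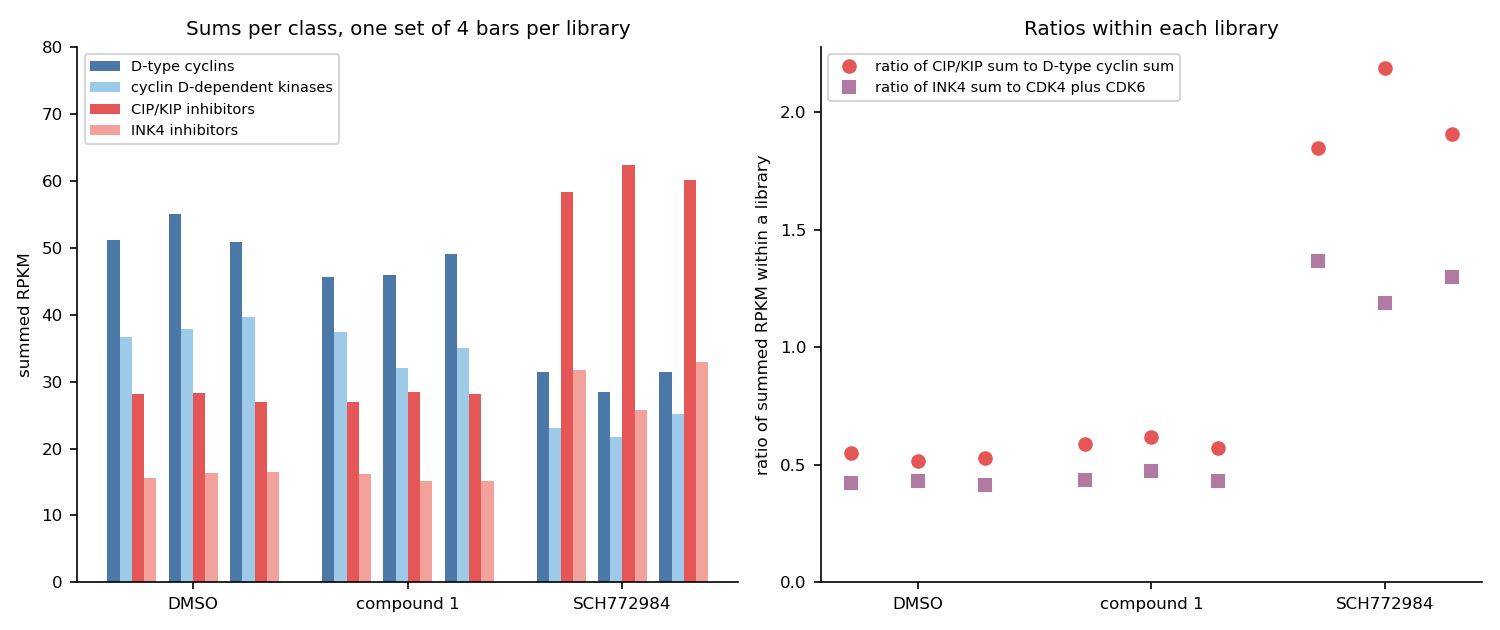
Left, summed RPKM of each class in each library, 1 set of 4 bars per library, on an axis from 0. Right, the ratios of the CIP/KIP sum to the D-type cyclin sum and of the INK4 sum to CDK4 with CDK6 within each library. The SCH772984 libraries show the lowest cyclin and kinase bars, the highest inhibitor bars and ratios of 1.85–2.19 and 1.19–1.37.

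The make-up of the classes was also read from the sums. CCND1 made up 76.8% of the D-type cyclin sum with DMSO, 80.1% with compound 1 and 81.8% with SCH772984, and CCND3 23.2%, 19.7% and 17.7%. With the longest coding transcript as the length, CCND3 made up 39.5%, 34.6% and 31.7%. CDKN1B was 95.6%, 94.1% and 91.7% of the CIP/KIP sum. The compound 1 libraries overlapped DMSO in these shares of CCND1, CCND3 and CDKN1B, and the SCH772984 libraries did not. CDKN2C was 62.6% of the INK4 sum with DMSO (59.4–64.3%), 67.1% with compound 1 (64.4–72.1%) and 81.4% with SCH772984 (79.7–83.0%). The groups did not overlap, but compound 1 and DMSO were barely apart, at 64.4% against 64.3%. With SCH772984, CDKN1B led the order of levels at 55.3 ± 1.94 RPKM, while CCND1 (24.9 ± 1.34), CDKN2C (24.5 ± 2.66) and CDK4 (22.7 ± 1.72) overlapped as neighbours in that order. With compound 1 the order was that of DMSO except that CDKN2C, at 10.4 RPKM, stood before CCND3, at 9.21 RPKM, and these overlapped.

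The genes that the pathway acts on or that act on it were read from 7 lists, of which the lists of cyclins, E2F factors and E2F target genes share members. Their counts with SCH772984 stand beside 37.2% of all genes tested higher, 35.5% lower and 72.8% called either way. All 22 E2F target genes were lower with SCH772984, with a median log2 fold change of -1.88 beside 0.03 over all genes tested. RRM2, a subunit of ribonucleotide reductase, fell by 2.66 (SE 0.07, adjusted p = 1.31e-32) and MCM7, a subunit of the replicative helicase, by 2.43 (SE 0.06, adjusted p = 2.03e-32). Of the cyclins E, A and B with CDK1 and CDK2, 7 of 8 were tested and all 7 fell, with a median of -1.67, CCNA2 by 2.11 (SE 0.07, adjusted p = 1.65e-28) and CDK1 by 1.76 (SE 0.08, adjusted p = 1.49e-24). Of the 13 RB and E2F family genes, 10 fell, 1 rose and 2 were not called, with a median of -1.30. E2F2 fell by 2.14 (SE 0.16, adjusted p = 9.12e-16), E2F7 fell by 1.90 (SE 0.19, adjusted p = 3.63e-12), and RBL2, the RB relative p130, rose by 0.41 (SE 0.08, adjusted p = 6.35e-06).

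Genes that help cyclin–CDK complexes form, or that degrade their parts, were read next. Of the 6 genes of the CDK-activating kinase and of CDK4 folding, 5 fell and 1 was not called, with a median of -0.77. HSP90AA1, a chaperone of CDK4, fell by 1.02 (SE 0.07, adjusted p = 3.54e-15) and CCNH, the cyclin of the CDK-activating kinase, by 0.89 (SE 0.09, adjusted p = 3.46e-12). Of 17 genes for the turnover of D-type cyclins and CIP/KIP proteins 16 were tested, with 9 lower, 3 higher and 4 not called and a median of -0.34, so the 12 of 16 called were near the 72.8% of all genes. CKS1B, which helps SKP2 recognize p27, fell by 2.04 (SE 0.07, adjusted p = 1.16e-27), and DTL, which recruits p21 to the CUL4 ligase, fell by 2.07 (SE 0.08, adjusted p = 1.67e-25). CUL4B and RNF123, parts of ubiquitin ligases, rose by 0.66 (SE 0.07, adjusted p = 1.49e-11) and 0.62 (SE 0.09, adjusted p = 1.06e-07). With compound 1 the difference for CKS1B was 0.31 (adjusted p = 0.0515).

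The ERK output genes are genes whose transcription follows ERK signalling. Of 15 such genes 14 were tested, with 13 lower, beside 35.5% of all genes, 1 higher and a median of -3.55. SPRY4 and ETV5, feedback and transcription factor genes downstream of ERK, were lower, where SPRY4 fell by 6.81 (SE 0.11, adjusted p = 6.44e-40) and ETV5 fell by 6.54 (SE 0.15, adjusted p = 1.55e-34), while EPHA4 rose by 1.48 (SE 0.06, adjusted p = 2.2e-25). Of 27 other cyclins and CDKs 26 were tested, with 11 higher, 11 lower and 4 not called and a median of 0.04, near the 37.2% and 35.5% of all genes. CCNG2 rose by 3.67 (SE 0.10, adjusted p = 8.7e-32) and CDK20 by 1.70 (SE 0.15, adjusted p = 5.34e-14), while CCNT1 fell by 1.99 (SE 0.09, adjusted p = 1.12e-23) and CCNF by 1.91 (SE 0.08, adjusted p = 3.7e-24).

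**Figure D4:**
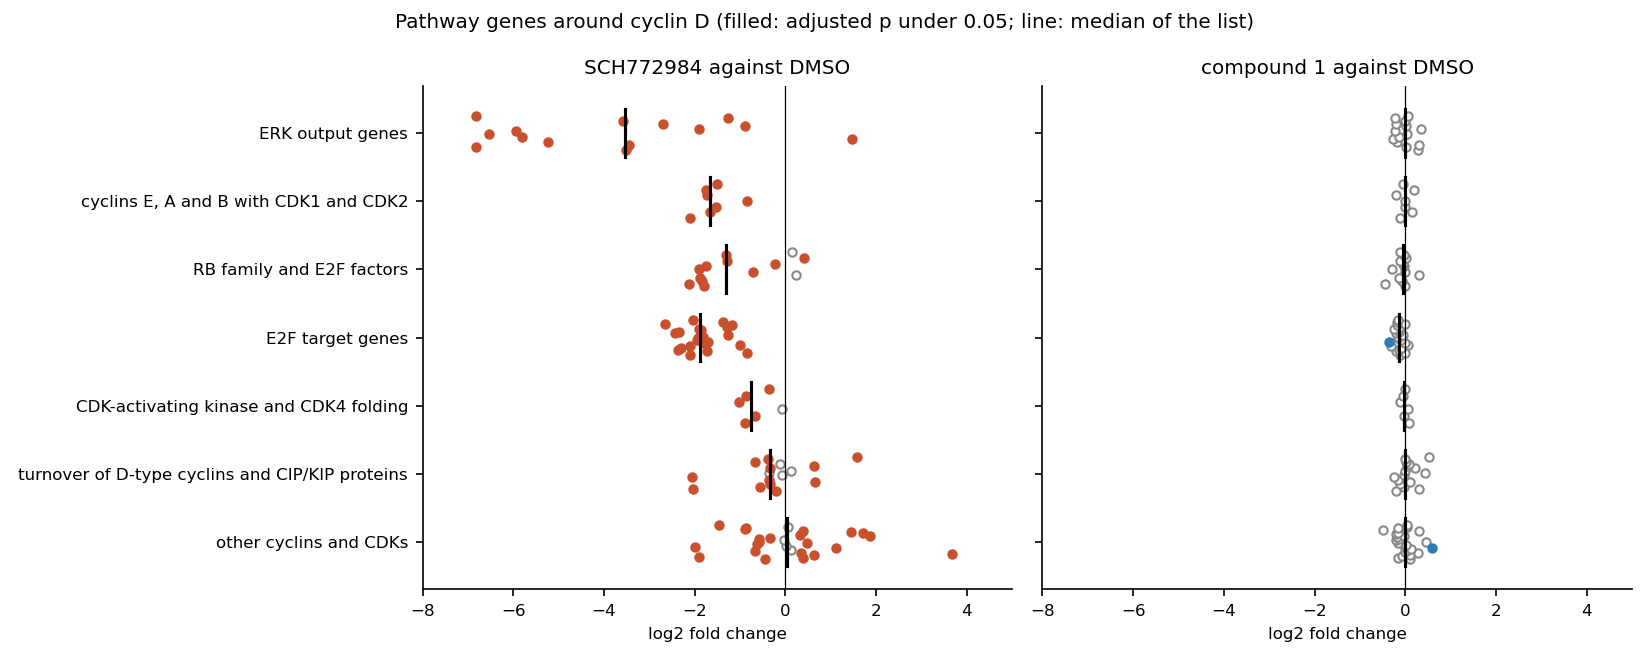
Log2 fold change (x axis) of every tested gene in 7 lists around the D-type cyclins, with SCH772984 on the left and compound 1 on the right. Points are genes, filled at an adjusted p under 0.05, and the vertical bars are medians of each list. The E2F target genes and the ERK output genes lie well under 0 with SCH772984, at medians of -1.88 and -3.55, and with compound 1 the medians lie between -0.145 and 0.004.

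With compound 1 these lists had medians from -0.145 to 0.004. The lowest was that of the E2F target genes, of which 20 of 22 had a log2 difference under 0, beside 49.5% of all genes tested. The genes called were MCM2, an E2F target gene and helicase subunit, and CCNL2, a cyclin linked to splicing. MCM2 fell by 0.35 (SE 0.07, adjusted p = 0.0299) and CCNL2 rose by 0.59 (SE 0.09, adjusted p = 0.00599). Both were named after their values were seen. The other genes of the 7 lists did not pass the threshold with compound 1, as the right side of the plot of lists shows.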

How the data were processed

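RNA was extracted from the treated cells with a Zymogen kit and libraries were made and sequenced by Novogene. The authors deposited raw read counts for each gene and library, without normalization or a filter, and these were used here. The submitters' processing notes name HISAT2 2.0.5, featureCounts 1.5.0-p3 and hg38, and the strand setting is not given in the sources used here, so reads from antisense partners cannot be told apart. All 58735 identifiers, coordinates and lengths matched GENCODE release 29.

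Libraries were grouped by their labels. Each pair of groups was fitted on its own with edgeR 4.0.16 in R 4.3.3 (TMM, filterByExpr with a minimum count of 10 and total of 15, robust quasi-likelihood test, Benjamini-Hochberg adjustment over all genes tested, called at 0.05). Standard errors are on the log2 scale. RPKM was computed from TMM-scaled library sizes and the length in the table. A count of 0 was given a floor of 3 counts per library, which covers counting error only. The fit was tested on simulated data. The genes and lists were chosen with earlier results of these data known, and 1 list is not reported here. All 10 genes were named, with up to 2 genes of largest rise and fall per list among those with an adjusted p under 0.05 and at least 5 CPM on average, and genes overlapping the 10. Alternatives were RLE or library size scaling, no filter, a minimum of 10 counts per library, 1 fit for all 9 libraries, a replicate block, DESeq2 1.42.0, an unadjusted p, at least 2-fold, thinned libraries, protein-coding genes only and leaving out each library. Using the longest coding transcript as the length was chosen after seeing the data.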

Additional observations from a re-analysis of the deposited data

How the results depend on the processing

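With SCH772984 against DMSO, the calls of the 9 genes with reads in both groups held in every fit, and CCND2 was not tested with at least 10 counts in every library, with all 9 libraries in one fit or with thinned libraries. Requiring at least 2-fold left 2 of 4 lower genes against DMSO. Against compound 1 it left 1 of 4 lower genes and ended the call of CDKN1A among the higher ones. CDKN2D, not called in any fit, changed sign to 0.0799 with library size alone and to 0.0474 without SCH772984 replicate 2, with a range of -0.2444 to 0.0474 over the fits without 1 library. Library size alone moved the median of all genes in that comparison from 0.03 to 0.20.

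With compound 1 against DMSO, 1 gene was higher at an unadjusted p under 0.05 and 1 without a filter on low counts, and 1 was lower with each of these, with all 9 libraries in one fit, with the replicate block and with DESeq2. Leaving out 1 library gave 0 to 1 genes higher and 0 to 2 lower. CCND2, at 0 counts in DMSO, was the higher gene without a filter, and CCND3 the lower gene, with an adjusted p of 0.00396 without a filter, 0.0464 with all 9 libraries, 0.0129 with the block and 0.0267 with DESeq2. Over all genes, 417 were called without a filter, 188 with all 9 libraries, 412 with the block, 239 with DESeq2, 70 among protein-coding genes and 8 to 1251 without 1 library, from 111. Genes that were not called changed sign, CDKN1B to 0.0109 with library size alone and 0.0186 without compound 1 replicate 1, CDKN1C to 0.053 without DMSO replicate 1, and CDKN2C to -0.0016 without compound 1 replicate 2. Without 1 library they ranged from -0.0453 to 0.0186, from -0.3049 to 0.053 and from -0.0016 to 0.0868. The cause was not tested.

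Between the inhibitors, leaving out 1 library gave 3 to 5 higher genes with CCND2 counted and 3 to 4 without it, with 3 without SCH772984 replicate 3, where CDKN1A lost its call and CCND2 was not tested, as it also was not without SCH772984 replicate 1. Deviations of same-numbered libraries correlated at -0.089 to 0.13, and those of differently numbered libraries at -0.124 to 0.178. With 3 libraries per group, these values cannot decide whether the shared replicate numbers pair the libraries. Apart from CCND3 with compound 1, the block changed no call among the 9 genes other than CCND2. Genes with few counts, CCND2, CDKN1A and CDKN1C, limit what these depths can show.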

Other observations

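Of the neighbours of CDKN2A and CDKN2B on chromosome 9, a set chosen after the counts were seen, KLHL9 (21329671 to 21335380), MTAP (21802543 to 21937651), CDKN2B-AS1 (21994778 to 22121097) and DMRTA1 (22446841 to 22455740, GRCh38) also had 0 counts in all 9 libraries, like CDKN2A and CDKN2B. This allows up to 0.201 CPM in the deepest library and 0.331 CPM in the shallowest.

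The 3 compound 1 libraries were less alike than the DMSO libraries. The chi-square statistic per degree of freedom between pairs of libraries, over genes, was 11.1 and 8.29 for compound 1 replicate 1 against replicates 2 and 3, and 2.78 between replicates 2 and 3. DMSO pairs gave 2.44 to 3.33, and SCH772984 pairs 4.31 to 6.97. Within the compound 1 group, replicate 1 had the highest level of CCND3, CDK4, CDKN1A, CDKN1C and CDKN2D and the lowest of CCND1, CCND2, CDK6 and CDKN1B.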
